A study of Mus musculus with 8 samples.

Results

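Isolated H3K27ac peaks are acetylated regions that stand alone on their chromosome, with no other peak of the table within 100000 bp on either side. The rule took every row with a gap of more than 100000 bp to both neighbours, measured from the end of a peak to the start of the next, and left out rows of 12500 bp or more. It found 1051 peaks among 22731, or 4.62%, of which 53 lay on chromosome 5 and are described apart. Of the other 998, 7 lay on unplaced sequences of the assembly, where distances between peaks are not known. A further row was as isolated but reached the width limit and was left out. The rule used position and width and no read count, although width goes with level across peaks, so the width limit bears on level too.

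H3K27ac was mapped by CUT&RUN in organoids grown from mouse colon cancer; the method uses an antibody to guide a nuclease to chromatin that carries the mark. Control organoids carried the genotype AKP, and the knockout organoids carried Gata6KO_AKP, so that the AKP background was shared by both groups. The labels do not spell out the alleles behind AKP. The labels name C57Bl6 as recipient mice, and how Gata6 was disrupted, and whether each line is a single clone, were not stated in the labels. Each group had 3 H3K27ac libraries, while the H3K4me3 and IgG libraries of control organoids were not analysed here, so no background was subtracted from the levels.

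Acetylation of lysine 27 on histone H3 marks active enhancers and active promoters. Enhancers often lie in groups near the genes they serve, and such neighbours can gain or lose the mark together. Other enhancers sit far from any gene in sparsely populated chromatin, and these act across long distances. GATA6 is a zinc finger protein that binds DNA and helps regulate genes in the intestine and other organs of endodermal origin.

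Reads in peaks numbered 5141856 to 7026388 per library. Levels are given as TMM-scaled CPM, taken over the reads in peaks, and a global rise or fall of the mark is invisible on this scale. The median isolated peak off chromosome 5 held 108 to 155 reads per library, against 144 to 196 for the median of all peaks. Each of the 22731 peaks was tested, and a peak was called at an adjusted p under 0.05 by edgeR's quasi-likelihood test. Even numbers made up 82.8% to 88.9% of a library's counts, a pattern that counting both mates of a pair would give. Because the labels leave it unsaid if replicates were separate cultures, p-values reflect only the spread among these libraries, which may be technical. The gene table and the promoter sequences at hand describe another assembly than the mm9 positions of the peaks. Peaks are therefore named by position, with no gene and no sequence.

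Isolated peaks made up 2.15% to 9.10% of the peaks of each autosome and 35.3% of those on X. Chromosome X held 136 peaks over a span of 160 Mb, and 48 of them were isolated. It carries 966 protein-coding genes in the RefSeq table, close to the 983 of chromosome 3, which held 868 peaks and 79 isolated ones. The lowest share, 2.15%, belonged to chromosome 11, where 37 of 1723 peaks were isolated. Across the 20 chromosomes, the share of isolated peaks went down as protein-coding genes per Mb of peak span went up, with a Spearman's rho of -0.66, and the rho was -0.63 over the 19 autosomes. This is a description over chromosomes that differ in length, number of peaks and base composition. The rule rests on the spacing of peaks, so the share depends on how densely peaks lie on a chromosome. Peaks numbered 14.5 per Mb on chromosome 11, 5.64 on chromosome 3 and 0.848 on X. The rho therefore cannot be told apart from a relation between gene density and peak density. Counted per 10 Mb, isolated peaks were spread more evenly, from 2.90 on chromosome 12 to 6.29 on chromosome 18, and X held 2.99.

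**Figure D1:**
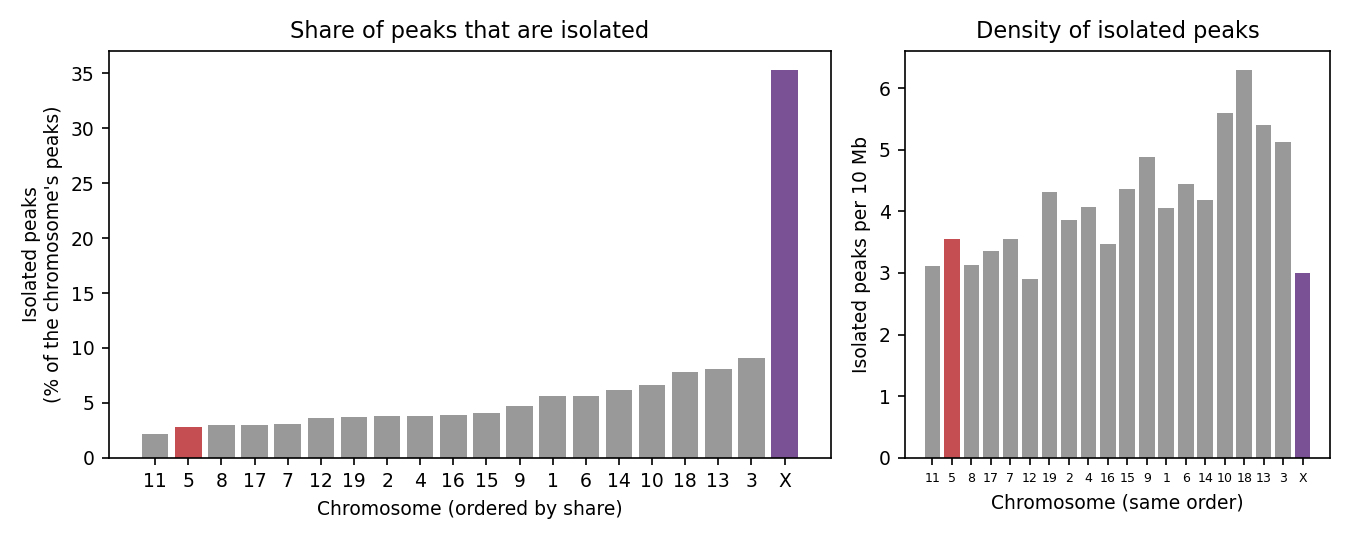
Isolated peaks by chromosome: the left bars give the percent of each chromosome's peaks that are isolated, and the right bars give the isolated peaks per 10 Mb between its first and last peak, in the same order. Chromosome 5 is red and X purple. X stands at 35.3% on the left, above the 9.10% of chromosome 3, and at 2.99 per 10 Mb on the right.

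The median gap from an isolated peak off chromosome 5 to its nearest neighbour was 199 kb, against 3.56 kb for non-isolated peaks under the width limit. On X the median was 774 kb. Of the 1044 isolated peaks on assembled chromosomes, 459 stood between non-isolated neighbours or chromosome ends, and 585 lay in 225 stretches of at least 2 consecutive isolated peaks. The most peaks in a stretch was 8, on chromosome 9 between 3001263 and 7185998 and on X from 99766092 to 137078352. The X stretch ran over 37.3 Mb, and its 8 peaks together held 146 ± 14.3 CPM in control and 153 ± 10.8 CPM in Gata6KO libraries (SD, n = 3 each).

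The 4 most isolated peaks with neighbours on both sides lay below the members' median level, and none was called. The peak on chromosome 16 from 70314193 to 70315119 was 4750 kb from its nearest neighbour. It held 5.74, 9.93 and 10.6 CPM in control replicates 1 to 3 and 8.53, 8.34 and 11.5 CPM in Gata6KO replicates 1 to 3. The groups overlapped, and the highest of the 6 values was that of Gata6KO replicate 3. On chromosome 1, that from 145623730 to 145625258, 4566 kb from its neighbour, held 18.7 ± 2.30 CPM in control and 17.2 ± 2.88 CPM in Gata6KO libraries (SD, n = 3 each). On X, the peaks from 126283752 to 126285885 and from 65931380 to 65932963 were 4367 kb and 3128 kb from a neighbour. Adjusted p for these 4 peaks ran from 0.789 to 0.969 (edgeR quasi-likelihood test, Benjamini-Hochberg adjustment).

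At the limit of the rule, the 2 peaks just inside had gaps of 100.1 kb on chromosome 16 and 100.5 kb on chromosome 5, with mean levels of 25.9 and 29.5 CPM and log2 fold changes of 0.32 and 0.31. The 2 peaks just outside had gaps of 99.4 kb on chromosome 17 and 99.3 kb on chromosome 6, with 25.7 and 18.2 CPM and log2 fold changes of 0.09 and -0.38.

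Isolated peaks were narrower and weaker than the rest. Off chromosome 5 their median width was 2024 bp and their median level 21.1 CPM, against 2678 bp and 27.4 CPM for non-isolated peaks under the width limit. Of the 998 members, 738 (73.9%) lay below the median level of the whole table, 27.7 CPM. All 1051 together covered 2.32 Mb of the 84.3 Mb in peaks. The members off chromosome 5 took 2.36%, 2.37% and 2.43% of the reads in peaks in control replicates 1 to 3. They took 2.43%, 2.43% and 2.49% in Gata6KO replicates 1 to 3. The means were 2.39% ± 0.0364 in control and 2.45% ± 0.0316 in Gata6KO libraries (SD, n = 3 each). No library of control reached the lowest Gata6KO value, though the margin was narrow. The total behind these shares includes chromosome 5, where 33.8% of peaks were called lower, and its part was not tested. The members' median level did not rise, at 21.4 ± 0.724 CPM in control and 21.3 ± 0.122 CPM in Gata6KO libraries (SD of library medians, n = 3 each).

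At the same mean count, the difference in width was smaller and the level per kb of width was higher at isolated peaks. Members off chromosome 5 were split into 10 classes by mean count, and the non-isolated peaks of each class were weighted by the members' numbers. Averaged in this way, class medians of width were 2148 bp for isolated and 2418 bp for non-isolated peaks. In the highest class, non-isolated peaks reached higher counts than isolated ones (median 58.9 against 46.9 CPM), so the match was loose there. Without that class the widths were 1982 and 2137 bp at 21.1 and 21.2 CPM. Width was smaller at isolated peaks in 9 of the 10 classes, all but the second class from the bottom. Level per kb was 10.8 CPM against 9.97 CPM, and it was higher at isolated peaks in 10 of 10 classes. At a matched count a smaller width gives a higher level per kb, so this is largely the width difference again. Without matching, the medians were 10.62 CPM per kb at isolated and 10.63 CPM per kb at non-isolated peaks off chromosome 5. These are descriptions of 1 peak set, and the differences were not tested.

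**Figure D2:**
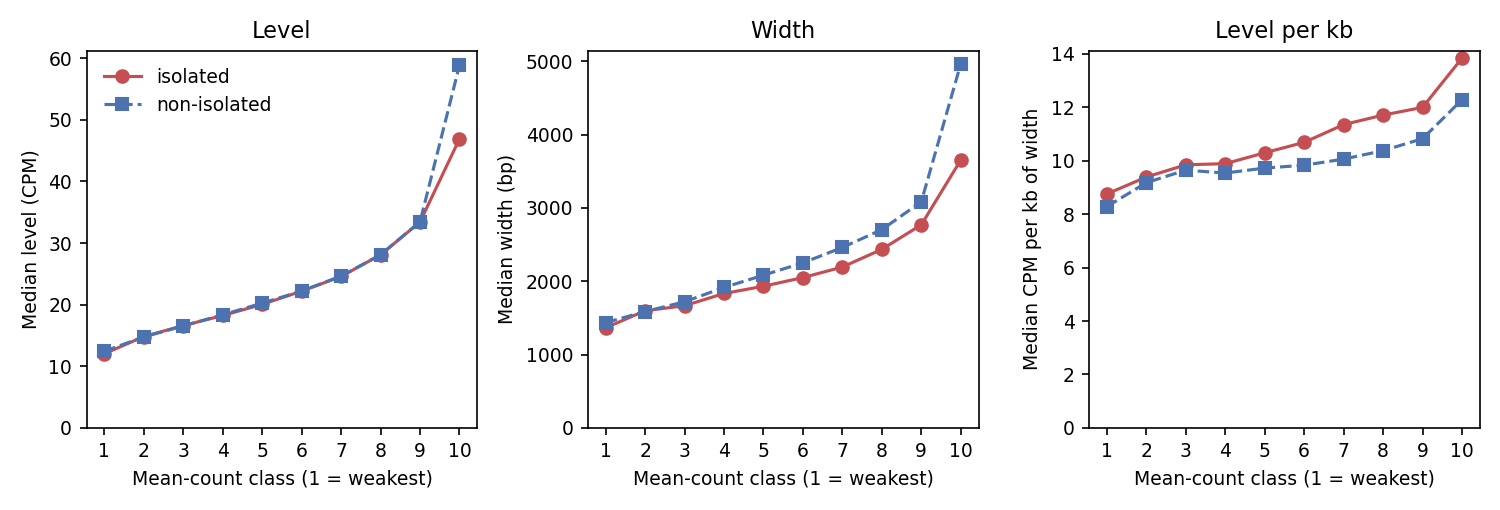
Median level (CPM), width (bp) and level per kb of width of isolated (red circles) and non-isolated peaks (blue squares) off chromosome 5, in 10 classes of mean count set on the isolated peaks. Levels nearly coincide in the lower 9 classes, while in the highest class the medians are 46.9 and 58.9 CPM.

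The strongest isolated peaks were also wide ones. On chromosome 9, the peak from 50972665 to 50980662, 7998 bp wide, had the highest mean level of the members. It held 119, 130 and 132 CPM in control replicates 1 to 3 and 137, 150 and 149 CPM in Gata6KO replicates 1 to 3. Each Gata6KO library lay above each control library, yet the change of 0.19 ± 0.08 (log2, SE) missed the threshold with an adjusted p of 0.0626 (edgeR quasi-likelihood test, Benjamini-Hochberg adjustment). It passed with DESeq2, total counts or trended offsets, and without Gata6KO replicate 1.

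The next 5 by level lay on chromosomes 16, 12, 15, 13 and 12, at mean levels of 122 to 82.9 CPM. Chromosome 12 held a peak from 106273317 to 106280660 with 97.3 ± 19.2 CPM in control and 68.6 ± 7.15 CPM in Gata6KO libraries (SD, n = 3 each), a fall with an adjusted p of 7.49e-06 by edgeR's quasi-likelihood test. Its control libraries were spread widely, at 115, 76.7 and 100.2 CPM, and its Gata6KO libraries held 62.0, 76.2 and 67.7 CPM. The highest Gata6KO value lay just below the lowest control value. The other peak on chromosome 12, from 104640690 to 104651327, held 110 ± 13.2 and 104 ± 5.76 CPM and was not called. Peaks between 21639634 and 21647672 on chromosome 16, between 35844994 and 35853158 on chromosome 15 and between 109123883 and 109131400 on chromosome 13 were called lower with log2 fold changes of -0.24, -0.26 and -0.31. The groups overlapped at the peak on chromosome 13. Calls at these 3 peaks depended on single libraries. Leaving out control replicate 1, control replicate 3 or Gata6KO replicate 1 ended the first, and each of 5 single libraries ended the second. Trended offsets ended both. Leaving out control replicate 1, control replicate 2 or Gata6KO replicate 3 ended the third.

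A few isolated peaks were very narrow. The table holds 5 peaks under 500 bp, and 4 of them were isolated. The peak on X from 139917547 to 139917652, 106 bp wide, held 49.8 ± 4.06 CPM in control and 45.1 ± 2.65 CPM in Gata6KO libraries (SD, n = 3 each), which made 447 CPM per kb, the highest level per kb of the table. The peak on chromosome 9 from 3001263 to 3001529, the first of its chromosome, held 119 CPM per kb. Another on X, from 72998169 to 72998589, held 43.8 CPM per kb. None of these 3 was called, with adjusted p between 0.484 and 0.952 (edgeR quasi-likelihood test, Benjamini-Hochberg adjustment). Their levels per kb divide by very small widths, and no IgG background was subtracted, so they are not read as dense acetylation.

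Acetylation was higher in the Gata6 knockout at 135 and lower at 76 of the 998 isolated peaks off chromosome 5. These shares, 13.5% and 7.62%, were near the background, since 12.3% of all peaks off chromosome 5 were called higher and 8.1% lower (edgeR quasi-likelihood test, Benjamini-Hochberg adjustment, 0.05). The members' median log2 fold change was -0.0023, against 0.01 over non-isolated peaks off chromosome 5 and under the width limit. The groups of libraries did not overlap at 32.2% of members and at 32.3% of all peaks off chromosome 5. Among the called members, groups were separate at 131 of 135 gains and at 69 of 76 losses. Called non-isolated peaks off chromosome 5 and under the width limit were much the same, with 2222 of 2349 gains and 1330 of 1465 losses separate. Called members had median log2 fold changes of 0.88 and -0.60, against 0.66 and -0.50 at those called non-isolated peaks. These medians cover only peaks that passed the threshold and are not matched for mean count.

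Beside non-isolated peaks of the same mean count over all 6 libraries, isolated peaks were called slightly more often in both directions. For gains this depended on how the classes were set. The weighted shares of the non-isolated peaks were 11.9% higher and 5.58% lower, so that the members stood 1.65 and 2.04 percentage points above them. The first of these differences turned to -1.24 points when classes were set by the control count alone, while the second was 2.85 points. Members stood above in 8 of 10 classes in each direction. Medians of log2 fold change went the other way: averaged over classes they were 0.02 for isolated and 0.06 for non-isolated peaks, and isolated peaks had the higher median in 1 of 10 classes. The differences were not tested and are small beside the steps between classes. Isolated peaks of the weakest class were called higher in 22.5% and lower in 2.94% of cases, and those of the strongest class in 16.2% and 15.2%. Non-isolated peaks leaned the same way, with 19.6% and 0.59% in the weakest class and 14.4% and 11.9% in the strongest. The lean was thus not particular to isolated peaks. The lean of the weakest class depended on the scaling. With offsets that follow the mean count, 12.7% of its isolated peaks were called higher and 8.82% lower. The shares of its non-isolated peaks were then 8.80% and 4.40%.

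Large changes were a larger share of the isolated peaks, though not in the strongest classes of mean count. A called gain of at least 2-fold was seen at 55 members off chromosome 5 and a called loss of at least 2-fold at 10, which is 5.51% and 1.0% of them. Over all peaks off chromosome 5 the shares were 2.63% and 0.355%, and over non-isolated peaks of the same mean count they were 3.73% and 0.408%. Members stood above the count-matched peaks in 8 of 10 classes for gains and in 6 of 10 for losses, and these differences were not tested. In classes 9 and 10, the strongest, 0% of members had such a gain or loss. Of the non-isolated peaks there, 1.38% and 1.22% had such gains. With trended offsets, which change the scaling with the mean count, 36 members had such gains and 12 such losses. These were 3.61% and 1.20% of them, beside 1.86% and 0.489% of all peaks off chromosome 5. The all-peak shares are not matched for mean count, and members were weaker at the median. In the weakest class, trended offsets gave such gains at 3.92% of members and 4.16% of non-isolated peaks. In the next class the shares were 5.10% and 2.26%. Isolated peaks held 10.0% of the 549 strong gains off chromosome 5, where they were 998 of the 20868 peaks. This share is not matched for mean count either. Among non-isolated peaks, such gains were called at 14.4% of the weakest class and 1.22% of the strongest. By edgeR's glmTreat, which tests against a 1.5-fold change, 34 members (3.41%) were called higher and 8 (0.80%) lower. The shares were 1.95% and 0.307% of non-isolated peaks of the same mean count, and 1.77% and 0.316% of all peaks off chromosome 5.

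**Figure D3:**
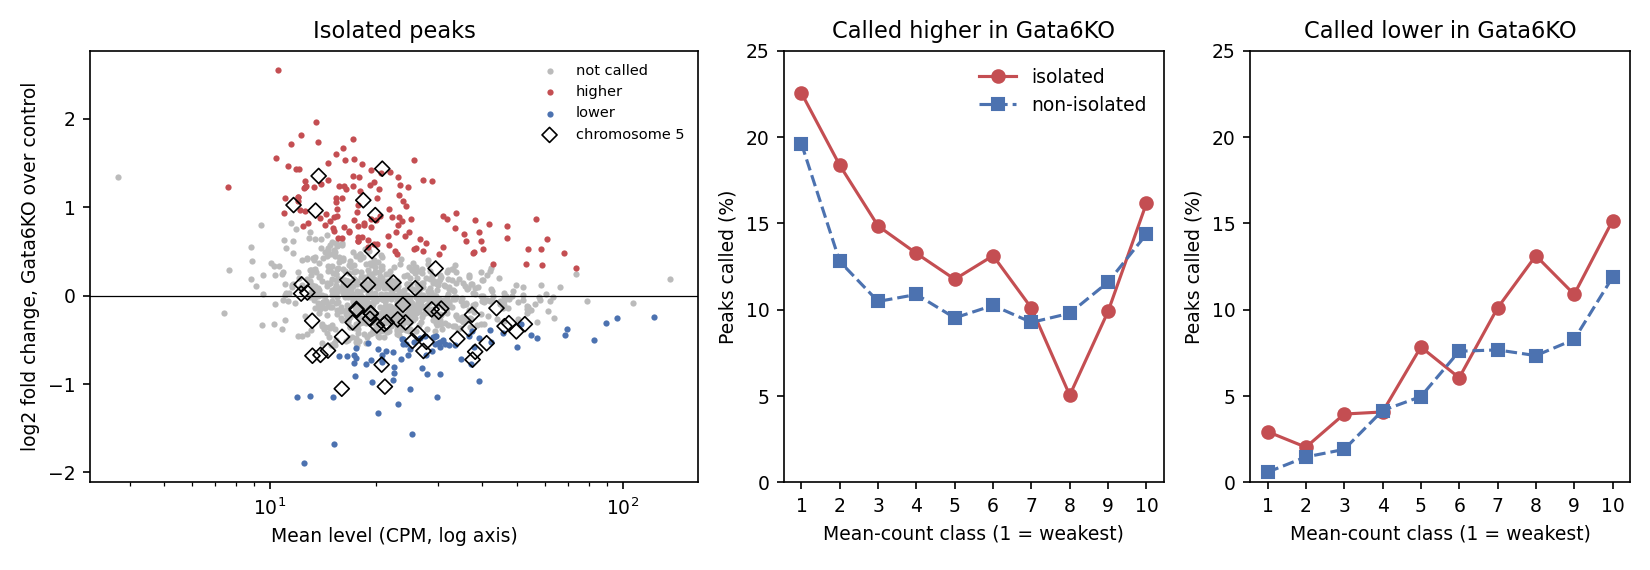
Left, log2 fold change of each isolated peak (Gata6KO over control) against its mean level in CPM on a log axis, with calls off chromosome 5 in red and blue and all chromosome 5 members as open diamonds. The middle and right panels give the percent of isolated (red) and non-isolated (blue) peaks off chromosome 5 called higher and lower in the 10 classes of mean count. From the weakest to the strongest class, the higher share goes from 22.5% to 16.2% at isolated and from 19.6% to 14.4% at non-isolated peaks. The lower share goes from 2.94% to 15.2% and from 0.59% to 11.9%.

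The gains named here are the 12 called peaks with the largest log2 fold change among members at or above the members' median level whose groups did not overlap, and the losses were taken likewise. The choice fixes their direction and separation. The top gain lay on chromosome 4 from 82743425 to 82746436, 128 kb from its nearest neighbour. It held 12.2, 14.0 and 13.3 CPM in control replicates 1 to 3 and 40.7, 38.1 and 35.6 CPM in Gata6KO replicates 1 to 3. Each knockout library held more than 2 times the level of every control library. The rise was 2.89-fold, with a log2 fold change of 1.53 ± 0.18 (SE) and an adjusted p of 1.23e-15 by edgeR's quasi-likelihood test.

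The second gain, on chromosome 1 from 55314450 to 55317141, held 12.9, 12.9 and 10.3 CPM in control and 29.9, 38.1 and 26.9 CPM in Gata6KO replicates 1 to 3, a 2.64-fold rise. Its highest library was Gata6KO replicate 2, and the groups stood well apart. Chromosome 9 held the third gain, between 52140995 and 52144162, with 13.1 ± 3.16 CPM in control and 32.9 ± 2.73 CPM in Gata6KO libraries (SD, n = 3 each), 2.54-fold more. It also held the fourth, between 62921844 and 62924305, with 15.6 ± 3.72 and 38.6 ± 3.37 CPM, 2.47-fold more. The groups did not overlap at either peak. Control replicate 3 was the lowest library at the former and control replicate 2 at the latter.

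The fifth gain, on chromosome 8 from 94968077 to 94972032, was the most remote of the 12, with its nearest neighbour 1033 kb away. It held 19.3, 14.0 and 16.6 CPM in control replicates 1 to 3 and 35.7, 42.4 and 44.9 CPM in Gata6KO replicates 1 to 3, a 2.46-fold rise. All knockout values lay above all control values. Its nearest neighbour was called lower, with a log2 fold change of -0.58. This was the only neighbour among the 12 that was called in the other direction.

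The remaining 7 gains rose 1.90-fold to 2.37-fold. On chromosome 6 the level rose 2.37-fold between 40201186 and 40204061, and on chromosome 8 the level rose 2.35-fold between 120422857 and 120425851. On chromosome 14 the level rose 2.21-fold between 34998983 and 35000888, and on chromosome 13 the level rose 2.10-fold between 28848688 and 28850951. On chromosome 19 the level rose 2.02-fold between 60739400 and 60741563, and on chromosome 1 the level rose 1.97-fold between 81740660 and 81742671. On chromosome 12 the level rose 1.90-fold between 80649335 and 80652079, where Gata6KO libraries held 44.1 ± 4.03 CPM, the highest mean knockout level of the 12, and control libraries 23.3 ± 3.63 CPM (SD, n = 3 each). Neighbours of the peaks on chromosomes 6 and 13 were called higher as well. All 12 had an adjusted p of at most 7.75e-06 in the edgeR quasi-likelihood test.

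The top loss lay on chromosome 10 from 114941496 to 114944513, 118 kb from its neighbour. It held 42.4, 35.8 and 34.9 CPM in control replicates 1 to 3 and 15.0, 11.97 and 11.2 CPM in Gata6KO replicates 1 to 3. Every knockout library lay far below every control library. The level fell 2.96-fold, with a log2 fold change of -1.57 ± 0.18 (SE) and an adjusted p of 5.31e-16 by edgeR's quasi-likelihood test.

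The second loss was remote, on chromosome 16 from 7425137 to 7426940, with 1044 kb to the nearer and 2173 kb to the farther neighbour. It went from 40.4, 30.4 and 26.4 CPM in control to 13.2, 12.7 and 15.4 CPM in Gata6KO replicates, a 2.34-fold fall. Control libraries were spread more widely here than knockout libraries. On chromosome 15, acetylation from 53046464 to 53048759 fell 2.22-fold, with means of 40.9 ± 5.63 and 18.5 ± 3.22 CPM (SD, n = 3 each). The fourth, a chromosome 10 peak from 128345600 to 128349074 and the last of its chromosome, fell 2.07-fold.

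The fifth loss, on chromosome 1 from 34175984 to 34179512, had the highest control level of the 12. It held 53.9, 51.4 and 50.1 CPM in control replicates and 23.3, 27.2 and 28.9 CPM in Gata6KO replicates, a 1.95-fold fall. The groups were narrow and far apart. Another remote loss, on chromosome 12 from 46173684 to 46176472, lay 803 kb and 6362 kb from its neighbours and fell from 39.2 ± 6.87 to 21.3 ± 0.388 CPM (SD, n = 3 each), 1.84-fold.

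The remaining 6 losses fell 1.71-fold to 1.94-fold. On chromosome 12 the level fell 1.94-fold between 79326534 and 79328910, and on chromosome 2 the level fell 1.85-fold between 169519326 and 169521936. On chromosome 10 the level fell 1.84-fold between 40057883 and 40059865, and on chromosome 13 the level fell 1.76-fold between 96420953 and 96423751. On chromosome 1 the level fell 1.75-fold between 53321222 and 53322483, and on chromosome 4 the level fell 1.71-fold between 105988028 and 105990654, where 1 control library stood high at 57.4 CPM. No loss among these 12 had an adjusted p above 1.86e-04 in the edgeR quasi-likelihood test. Their neighbours had log2 fold changes of -0.26 to 0.70, with adjusted p of 0.0908 or more by the same edgeR test.

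**Figure D4:**
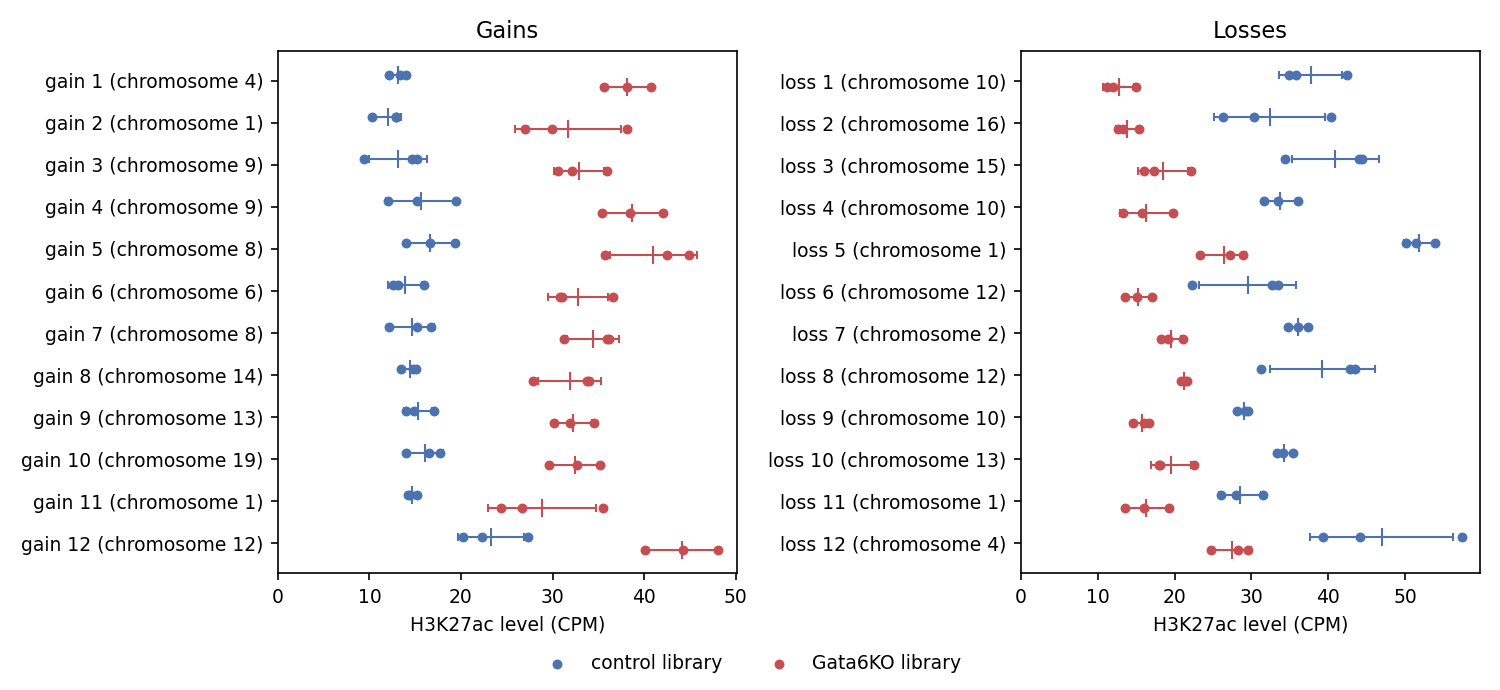
H3K27ac level in CPM of the 12 named gains (left) and 12 named losses (right) among isolated peaks off chromosome 5. Points are libraries, with control in blue and Gata6KO in red, and the tick and bar give the mean and SD of 3 libraries. The groups do not overlap in any row, as the choice of peaks requires; the top gain goes from 13.2 to 38.1 CPM and the top loss from 37.7 to 12.7 CPM.

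Larger fold changes were found among weaker members, which were picked after their values were seen. The peak on chromosome 3 from 115387849 to 115389214 had the largest gain of all 22731 peaks, a log2 fold change of 2.55 ± 0.39 (SE). It held 8, 14 and 34 reads in control replicates 1 to 3 and 84, 128 and 102 reads in Gata6KO replicates 1 to 3. The groups were separate, and control replicate 3 held most of the control reads. The log2 fold change was 1.73 with trended offsets and 3.14 without control replicate 3, and the call was kept in both. In CPM it went from 2.996 ± 1.75 to 18.1 ± 4.54 (SD, n = 3 each). Next came a 3.91-fold gain on chromosome 18 between 11354307 and 11355950 and a 3.53-fold gain on chromosome 7 between 141437703 and 141439100.

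The largest loss among members lay on the same chromosome, from 60806175 to 60808020 on chromosome 3. It held 17.0, 22.8 and 19.2 CPM in control replicates and 6.96, 2.54 and 6.25 CPM in Gata6KO replicates, a 3.71-fold fall that was the second-largest of the table. The groups stood apart, with Gata6KO replicate 2 lowest, and the log2 fold change was -1.89, or -2.42 with trended offsets. On chromosome 8, a peak of 462 bp from 40238184 to 40238645 fell 3.20-fold, with means going from 23.2 ± 5.02 to 7.20 ± 0.405 CPM (SD, n = 3 each). It was the only called member under 500 bp.

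On chromosome 5, 53 peaks were isolated, 2.84% of the chromosome's peaks. Of these, 14 were called lower and 6 higher, that is 26.4% and 11.3%, where 33.8% and 4.46% of all peaks on the chromosome were called. Groups did not overlap at 49.1% of the members and at 50% of all peaks of the chromosome. Gains of at least 2-fold were called at 4 members and losses at 2, against 1.23% and 0.966% of the chromosome's peaks. The members' median log2 fold change was -0.27, beside the -0.25 of the chromosome's 1742 non-isolated peaks under the width limit. They took 0.139% ± 0.00111 of the reads in peaks in control and 0.121% ± 0.00368 in Gata6KO libraries (SD, n = 3 each). When chromosome 5 was fitted and scaled alone, 4 of the 53 were called lower and 8 higher, so the split of calls was not kept. That fit changed the scaling, the spread estimate and the peaks adjusted over together, and their parts in the change were not tested. In that fit 9.18% of the chromosome's peaks were called lower and 10.6% higher.

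The top gain on chromosome 5 lay from 103969558 to 103971186, with neighbours 210 kb and 1470 kb away. It held 10.8, 10.5 and 12.3 CPM in control replicates 1 to 3 and 25.1, 31.2 and 35.0 CPM in Gata6KO replicates 1 to 3, a 2.70-fold rise. The groups were well separated, and the log2 fold change was 1.68 in the fit of the chromosome alone. The peak from 99414084 to 99415879 rose 2.55-fold and its neighbour 156 kb away was called higher too. Peaks from 17587429 to 17589344 and from 107630868 to 107632158 rose 2.11-fold and 2.03-fold. The call at the latter was lost with trended offsets and without control replicate 2 or Gata6KO replicate 3.

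The 4 strongest losses on chromosome 5 started at 5693365, 8666727, 40221600 and 91829201, and ended at 5694762, 8669549, 40223556 and 91832393. They fell 2.07-fold, 2.04-fold, 1.72-fold and 1.65-fold. The last had the highest level, with 51.8, 46.4 and 42.1 CPM in control replicates and 24.0, 31.6 and 29.2 CPM in Gata6KO replicates. Fitted alone, these peaks had log2 fold changes of -0.81, -0.78, -0.53 and -0.48, and the third missed the threshold with an adjusted p of 0.0524 (edgeR quasi-likelihood test, Benjamini-Hochberg adjustment).

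On X, 1 of the 48 isolated peaks was called higher and 1 lower, against 14 and 1 of the 88 non-isolated peaks. Medians of log2 fold change were 0.03 and 0.17, and median levels 17.8 and 21.6 CPM. Whether the isolated peaks of X differ from its other peaks was not tested. On unplaced sequences, edgeR and DESeq2 called 0 of the 7 peaks, with 1 at an unadjusted p under 0.05 by edgeR.

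Shares of called members on assembled chromosomes other than 5 lay close together across classes of distance, with no test between classes. With gaps of 100 to 200 kb, 13.9% of 497 peaks were called higher and 8.45% lower. With gaps of 200 to 500 kb the shares were 13.0% and 6.65% of 316, and with gaps over 500 kb they were 14.0% and 7.30% of 178. Median widths were 2129, 1960 and 1913 bp in the same order, and median levels 21.8, 20.7 and 19.9 CPM.

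Most called isolated peaks had a nearest neighbour that was not called. Of the 135 members called higher off chromosome 5, 30 (22.2%) had a nearest neighbour called higher and 13 had one called lower. Over all 996 members with a neighbour, 13.7% of nearest neighbours were called higher. Of the 76 members called lower, 6 (7.89%) had a neighbour called lower and 5 had one called higher, where 7.53% of all nearest neighbours were called lower. The share for losses was therefore near that of any neighbour. Among non-isolated peaks under the width limit, 43.9% of those called higher and 30.1% of those called lower had a nearest neighbour called the same way. These peaks lie 3.56 kb from their neighbours at the median, are often each other's nearest neighbour, and hold more reads, so the shares are set side by side without a test.

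Likeness of change between adjacent peaks went down as the gap grew. Over adjacent pairs off chromosome 5, Spearman's rho of the log2 fold changes was 0.50 at gaps up to 1 kb (2718 pairs) and 0.39 at 5 to 20 kb (5295 pairs). It was 0.17 at 50 to 100 kb (1663 pairs), 0.09 at 100 to 200 kb (1177 pairs) and -0.01 beyond 500 kb (971 pairs). Pairs of peaks share all 6 libraries and chromosomes, so these values are descriptions. Isolated peaks were also weaker and varied more within groups, with a median coefficient of variation of 15.3% against 12.6% at non-isolated peaks off chromosome 5. Pairs with gaps over 100 kb are not all pairs of isolated peaks, since a peak in them can have a close neighbour on its other side. Level and spread are not given here for the peaks of each gap class, and their part in the lower rho was not tested. Among pairs with at least 1 peak called higher, both were called higher in 33.0% at gaps up to 1 kb and in 9.89% at 100 to 200 kb. The share was 8.52% at 200 to 500 kb and 10.6% beyond 500 kb (26 of 246 pairs), so it did not go on falling past 100 kb. For losses the shares were 21.7% at gaps up to 1 kb, 6.06% at 100 to 200 kb, 5.99% at 200 to 500 kb and 1.53% beyond 500 kb (2 of 131 pairs). Calls in opposite directions were found in 28 pairs beyond 500 kb. Unlinked pairs would share some calls too, since 12.3% of all peaks off chromosome 5 were called higher and 8.1% lower.

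**Figure D5:**
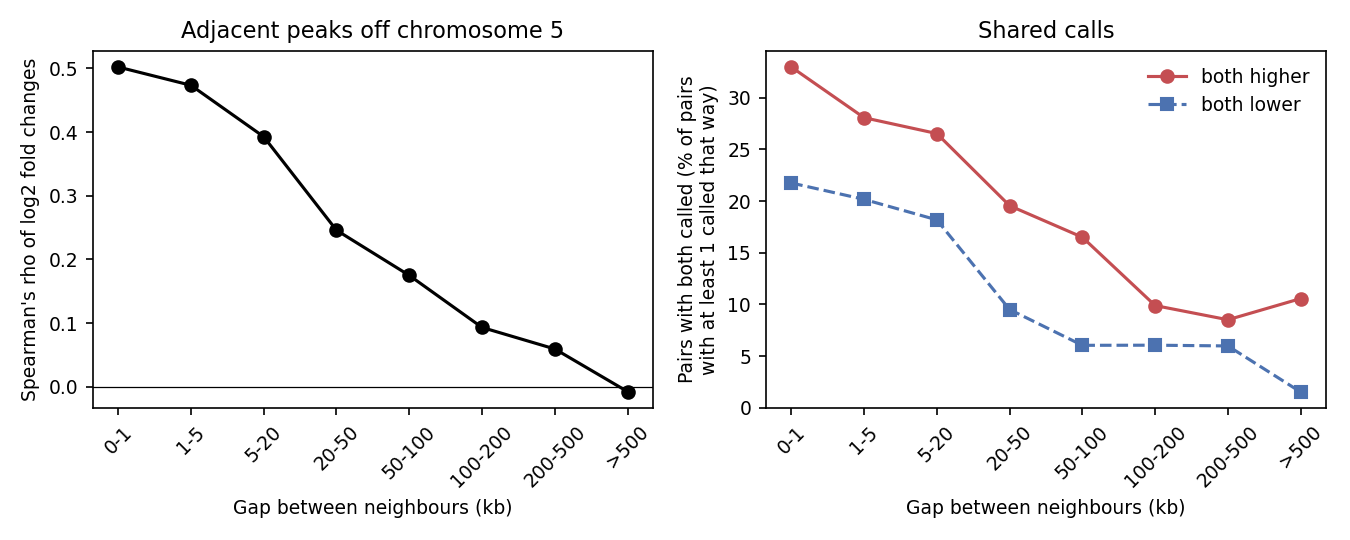
Adjacent peaks off chromosome 5 and off unplaced sequences, by the gap between them in kb. Left, Spearman's rho of the 2 log2 fold changes, from 0.50 at gaps up to 1 kb to -0.01 beyond 500 kb; right, the percent of pairs with at least 1 peak called higher (red) or lower (blue) in which both were called that way.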

How the data were processed

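CUT&RUN for H3K27ac was analysed in 3 control and 3 Gata6KO libraries. The authors deposited raw read counts over 1 peak set shared by all 6 libraries. Per the submitters' processing notes, the build was mm9 and the tools were SEACR, Bowtie, bedtools, SAMtools and Picard. The step that merged peaks and the read counter are not stated there. Positions and peak widths are those of the deposited table, per the file headers. All 22731 peaks passed edgeR's filter and were fitted together with edgeR 4.0.16 (TMM factors, quasi-likelihood test, two-sided, Benjamini-Hochberg adjustment over all peaks, call at 0.05). The common coefficient of variation was 11.4%. In simulated counts for the Gata6KO comparison (22731 peaks), the fit found 52 of 100 changes of 1.5-fold and 91 of 100 of 2-fold, and called 9 of the 22531 peaks left unchanged. The simulation changed far fewer peaks than were called in the data (2640 higher and 2320 lower). The adjustment is stricter when fewer peaks change, so these recoveries do not give the recovery in the data. Standard errors come from the quasi-likelihood F statistic.

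Non-isolated peaks off chromosome 5 and under 12500 bp were put in the members' 10 deciles of mean count and weighted by the members' numbers. Alternatives were DESeq2 1.42.0, other scalings (trended offsets use a loess span of 0.3), filters, thresholds, gaps of 50 and 200 kb, a block for replicate number and the omission of single libraries. Named peaks are the 12 largest calls per direction with separate groups at or above the members' median level, the 6 highest by level, 4 by level per kb and 4 by gap, and up to 4 per direction on chromosome 5. The peak groups and lists were chosen with earlier results of these data known. Planned analyses of sequence and annotation were not run, since no mm9 genome was used here.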

Additional observations from a re-analysis of the deposited data

How the results depend on the processing

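Across DESeq2, total counts, DESeq2 size factors, upper-quartile factors, trended offsets, chromosome 5 left out, both other filters (1 removed no peak) and halved counts, isolated peaks called off chromosome 5 numbered 115 to 142 higher and 74 to 92 lower. When single libraries were omitted, 109 to 127 were higher and 56 to 75 lower off chromosome 5, with 5 to 7 and 10 to 13 on it. Same-numbered libraries were not shown to be paired: deviations from the group means correlated at 0.00595 to 0.0679. A replicate block gave 133 higher and 79 lower, and every call at a named peak was kept. Against a 1.5-fold change (glmTreat) 34 higher and 8 lower remained off chromosome 5, and 2 higher and 0 lower on it (2 lower at an unadjusted p under 0.05; DESeq2 called 17 lower without a minimum fold), since fewer small changes can pass. At an adjusted p under 0.01, 9 were lower on chromosome 5. Other gaps change the number of members: over 50 kb there were 261 higher and 156 lower of 1906, and 31 lower on chromosome 5, and over 200 kb 66 higher and 34 lower of 499, and 3 lower on chromosome 5. Chromosome 5 fitted and scaled alone had 4 lower, with fit and scaling changed together. The median log2 fold change off chromosome 5 moved to -0.042 with trended offsets, and the difference in higher calls from non-isolated peaks of like count to -1.24 points in classes of control count; the cause was not tested. Of 892 values of 50 named peaks, 849 stayed on their side of the threshold, called or not, 39 lost a call and 4 gained one (20 of the 39 with glmTreat), and no call reversed. Most were chosen as strong, separate calls. Fitting chromosome 5 alone and omitting unplaced sequences were chosen after seeing the data. In the simulation 52 of 100 changes of 1.5-fold were recovered, and these were drawn from all 22731 peaks. Far fewer peaks were changed there than were called in the data, so recovery in the data may differ. The median member held 108 to 155 reads per library, fewer than the median of all peaks. Recovery at that level was not simulated apart.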
